A study of Mus musculus with 4 samples.

Results

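The transcripts described here are 9 genes best known from neutrophils: S100a8, S100a9, Ngp, Camp, Ltf, Lcn2, Mmp9, Wfdc21 and Cxcr2. They were chosen by their signals on these same arrays, for being higher in CD30low than in CD30high Th17 cells, so the values of that comparison are a description. All 9 genes were named in the platform annotation, by 10 of 45037 probe sets and among 18193 named genes. The stated direction held for S100a8, S100a9, Ngp, Camp, Ltf and Lcn2. Wfdc21 was nearly equal in both Th17 populations, and Mmp9 and Cxcr2 had their lower Th17 signal in CD30low cells.

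The cells were splenic CD4 T cells of the mouse, grown for 6 days toward effector Th1 or Th17 cells and then sorted into populations with little or much surface CD30, which belongs to the family of TNF receptors. Th1 cultures held IL-2 culture supernatant (30 U/ml), IL-12 (100 U/ml) and anti-IL-4 antibody (1 µg/ml). Th17 cultures held IL-6, IL-1β and IL-23 (10 ng/ml each) with anti-IL-4 and anti-IFN-γ antibodies (10 µg/ml each). The CD30low samples are labelled as started from CD44low CD62Llow CD4+ cells and the CD30high samples from CD44low CD62Lhi CD4+ cells, whereas the methods describe CD62L-high naive cells for all. Gate and starting cells cannot be told apart if the labels hold. By the methods the T cells carried a transgenic receptor for ovalbumin and were stimulated with its peptide on irradiated splenocytes depleted of T cells, so non-T cells were present in every culture at its start. Which transgenic line was used for these arrays was not given in the sources used here.

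Both gates of both lineages were measured, on 4 arrays in all and with 1 array for each population. No difference between arrays therefore has a replicate error, and no p-value is given. Signals were linear intensities. Values below 100 were treated as dim and set to 100 before a ratio was taken, so a fold against such a value is a lower bound. A gene passed the fold rule when the brighter array reached 300 and exceeded the dimmer by 2-fold or more. The log2 ratios of CD30low over CD30high Th17 cells differed between probe sets of the same gene with an SD of 0.19 per probe set (2836 genes), which covers the technical disagreement of probe sets and no biological spread. The T cell genes Cd3e (1465 to 2722) and Cd4 (582 to 773) were above 300 on every array. The CD30 gene Tnfrsf8 was below 100 on 3 of 4 arrays, with 13.3 (CD30low) and 51.1 (CD30high) in Th1 cells and 34.9 and 132 in Th17 cells. Where a lineage has a pair of values, the CD30low value stands first. The Y-linked gene Eif2s3y gave 1784 and 1640 in Th1 but 1.41 and 9.39 in Th17 cells. Xist, a gene of female cells, had 14620 and 16222.5 in Th1 and 22350 and 22613 in Th17 cells by its brightest probe set. Another Xist probe set had 2745 and 4535 in Th1 and 10999.5 and 12436 in Th17 cells. The Th1 arrays thus held signals of both sexes, and lineage and the sex of the source mice cannot be told apart. In bulk RNA, a larger share of cells that express a gene and more RNA of that gene per cell cannot be told apart either.

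Neutrophils store antimicrobial proteins in granules that are made in sequence during maturation in the bone marrow. Primary granules hold myeloperoxidase and elastase, secondary granules hold lactoferrin, cathelicidin and lipocalin, and tertiary granules hold gelatinase. Calprotectin, the dimer of S100A8 and S100A9, lies in the cytosol, where it is among the most abundant proteins of the cell, and withholds zinc and manganese from microbes. Th17 cells are known for recruiting neutrophils through IL-17, which induces chemokines and lipocalin in tissue cells.

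The calprotectin genes were dim in Th1 cells and well above 300 in Th17 cells. S100a8 gave 2.11 and 7.51 in the Th1 populations, then 5192 in CD30low and 1209.9 in CD30high Th17 cells. Its partner S100a9 gave 3.95 and 18.1 in Th1 and 2017 and 527 in Th17 cells. Both had their highest value in CD30low Th17 cells. The difference between the Th17 gates was 4.29-fold for S100a8 and 3.83-fold for S100a9 (log2 ratios of 2.10 and 1.94), and these log2 ratios lay within the spread between probe sets of each other.

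Genes of the secondary granule were likewise brightest in CD30low Th17 cells, at lower signals. Ngp, the gene of a neutrophilic granule protein related to cystatins, gave 2.1 and 31.9 in Th1 and 1072 and 295 in Th17 cells. Lcn2, whose lipocalin binds bacterial siderophores, had 1.04 and 3.79 in the Th1 cells and 459 and 101 in the Th17 cells. Ltf, the gene of the iron-binding lactoferrin, had 7.93 and 28.7 in the Th1 cells and 353 and 69 in the Th17 cells. All 3 genes were dim in Th1 cells and brightest in CD30low Th17 cells. The difference between the Th17 gates was 3.63-fold for Ngp, 4.55-fold for Lcn2 and at least 3.53-fold for Ltf. Camp, which encodes the cathelicidin precursor, was dimmer, with 5.78 and 25.4 in the Th1 cells and 208 and 61.1 in the Th17 cells. Its difference of at least 2.08-fold did not count, because no array reached 300.

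**Figure D1:**
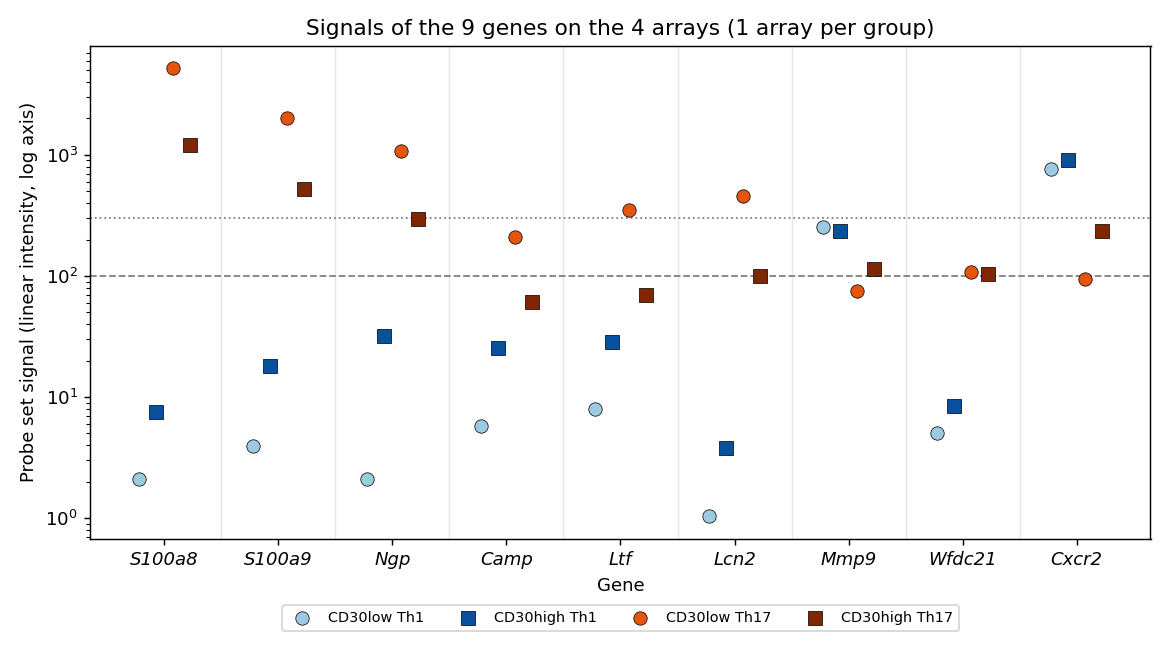
Signals of the 9 genes (y axis, linear intensity on a log axis) on the 4 arrays; each point is 1 array, the dashed line marks 100 and the dotted line 300. S100a8 to Lcn2 lie below 100 in both Th1 populations and are brightest in CD30low Th17 cells, from 208 for Camp to 5192 for S100a8, whereas Cxcr2 is brightest in Th1 cells.

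In the Th17 comparison, 5 of the 9 genes reached 300 on an array and these 5 (S100a8, S100a9, Ngp, Ltf and Lcn2) passed the fold rule as higher in CD30low cells. Over all genes tested, 285 of 7786 (3.66%) passed in that direction and 307 (3.94%) in the other; since the genes were picked on this contrast, nothing is read from the difference. Ltf, with 353 in its brighter array, lay just inside the signal limit and Camp, with 208, outside it. The probe set of S100a8 has the suffix that the manufacturer gives to designs that can match transcripts of more than 1 gene, and apart from Mmp9 each gene was measured by 1 probe set only, so the agreement of probe sets could not be checked for these genes.

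The 6 genes that were higher in CD30low Th17 cells were all dim in Th1 cells and brightest in CD30low Th17 cells, and their promoters are shown for that reason. RefSeq sequences of GRCm38.p6 were at hand for these 6 genes and for Cxcr2. The 120 bases before the annotated start site are printed 5′ to 3′ along the gene, from S100a8 chr3:90668951-90669070 (forward strand), S100a9 chr3:90695722-90695841 (reverse strand), Ngp chr9:110419688-110419807 (forward strand), Ltf chr9:111019172-111019291 (forward strand), Camp chr9:109849457-109849576 (reverse strand) and Lcn2 chr2:32387740-32387859 (reverse strand). Capitals mark matches to TTNNGNAA, a loose form of the site of C/EBP factors, which drive granule genes in maturing myeloid cells.
S100a8: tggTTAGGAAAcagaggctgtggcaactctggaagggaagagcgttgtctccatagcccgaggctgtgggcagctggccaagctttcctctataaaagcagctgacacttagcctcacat
S100a9: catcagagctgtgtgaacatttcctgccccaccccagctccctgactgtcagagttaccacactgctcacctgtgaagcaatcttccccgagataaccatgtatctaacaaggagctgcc
Ngp: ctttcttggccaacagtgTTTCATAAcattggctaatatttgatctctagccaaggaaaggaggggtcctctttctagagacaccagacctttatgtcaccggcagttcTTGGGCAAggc
Ltf: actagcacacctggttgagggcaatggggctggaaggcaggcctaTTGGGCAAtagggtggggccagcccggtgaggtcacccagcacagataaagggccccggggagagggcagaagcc
Camp: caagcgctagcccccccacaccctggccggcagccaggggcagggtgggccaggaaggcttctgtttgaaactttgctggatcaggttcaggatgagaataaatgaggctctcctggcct
Lcn2: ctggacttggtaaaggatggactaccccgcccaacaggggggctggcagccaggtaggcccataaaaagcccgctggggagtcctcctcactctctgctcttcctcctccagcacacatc

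Within these 120 bases, TTNNGNAA was found on either strand in 3 of 7 promoters, those of S100a8, Ngp (at 2 places) and Ltf, against 18% of all 32851 promoters of the table. Within 250 bases it was found in 5 of 7, S100a9 and Lcn2 being added, against 36.8% of all. The promoters of Ngp and Ltf held the same letters, TTGGGCAA, 11 to 4 bases and 75 to 68 bases before the start. Of the other letters searched in 250 bases, GAGGAAG (a PU.1 site) was found in S100a8 and Lcn2 (10.6% of all promoters) and GGGNNNNNCC (a loose NF-κB site) in Lcn2, Ltf and Cxcr2 (45.8% of all). TTCNNNGAA (STAT) and TGANTCA (AP-1) were found in none of the 7, against 7.02% and 6.75% of all. No match overlapped one of another factor. These are matches of letters only.

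The other 3 genes did not share the pattern. Cxcr2, the chemokine receptor that leads neutrophils out of the marrow and toward CXCL1 and related ligands, had its highest signals in Th1 cells, with 763 in CD30low and 905 in CD30high cells. In the Th17 cells it had 93.5 and 235, the lower value in CD30low cells, which is the opposite order to that of calprotectin. The difference between the Th17 gates was at least 2.35-fold, with no array of that pair reaching 300. Mmp9, the gene of gelatinase B, had 254 and 235 in the Th1 cells and 74.8 and 113 in the Th17 cells. Its other probe set had 159 and 163 in the Th1 cells and 9.997 and 14.5 in the Th17 cells, so both probe sets were brighter in Th1 cells. Wfdc21, which encodes a protein with a whey acidic protein domain, had 5.09 and 8.37 in the Th1 cells and 109 and 104 in the Th17 cells. It was at the edge of the dim range in Th17 cells, with nearly the same signal in both gates.

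Between the Th1 gates, 7 of the 9 genes were below 100 on both arrays. Cxcr2 alone reached 300, and 0 of the 9 passed the fold rule in either direction; over all 7813 genes tested, 0.486% passed as higher and 0.794% as lower in CD30low cells. The log2 ratio of CD30low over CD30high Th1 cells was -0.25 for Cxcr2 and 0.12 for Mmp9, against an SD between probe sets of 0.23 in this comparison. With signals below 100 set to 100, the Th17 ratios were -1.23 for Cxcr2 and -0.18 for Mmp9. The gate ratio of Cxcr2 was thus smaller in size in Th1 than in Th17 cells, and that of Mmp9 was small in both. For 7 of the 9 genes the Th1 signals were too dim to show a ratio.

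The Th17 populations were compared with the Th1 populations of the same gate. These comparisons share the Th17 arrays with the comparison that chose the genes, so they are also given as a description. Among CD30low cells, 5 genes passed as higher in Th17 cells, again S100a8 (at least 51.9-fold), S100a9 (at least 20.2-fold), Ngp (at least 10.7-fold), Lcn2 (at least 4.59-fold) and Ltf (at least 3.53-fold). Of all 7857 genes tested, 3.53% passed in that direction. Cxcr2 passed as lower in Th17 cells (at least 7.63-fold), as did 5.83% of all genes. Mmp9 was at least 2.54-fold lower by its brighter probe set, without an array at 300.

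Among CD30high cells the calprotectin genes still passed, with S100a8 at least 12.1-fold and S100a9 at least 5.27-fold higher in Th17 cells (4.98% of 7979 genes passed in that direction). Ngp, with 295 against 31.9, was at least 2.95-fold higher and stayed just under the signal limit. Lcn2 had only 101, and Ltf and Camp were below 100 in both CD30high populations. Cxcr2 was 3.85-fold lower in CD30high Th17 than in CD30high Th1 cells, with 6.86% of all genes passing as lower. In CD30high Th17 cells S100a8 and S100a9 were thus the only genes of the 9 that reached 300.

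**Figure D2:**
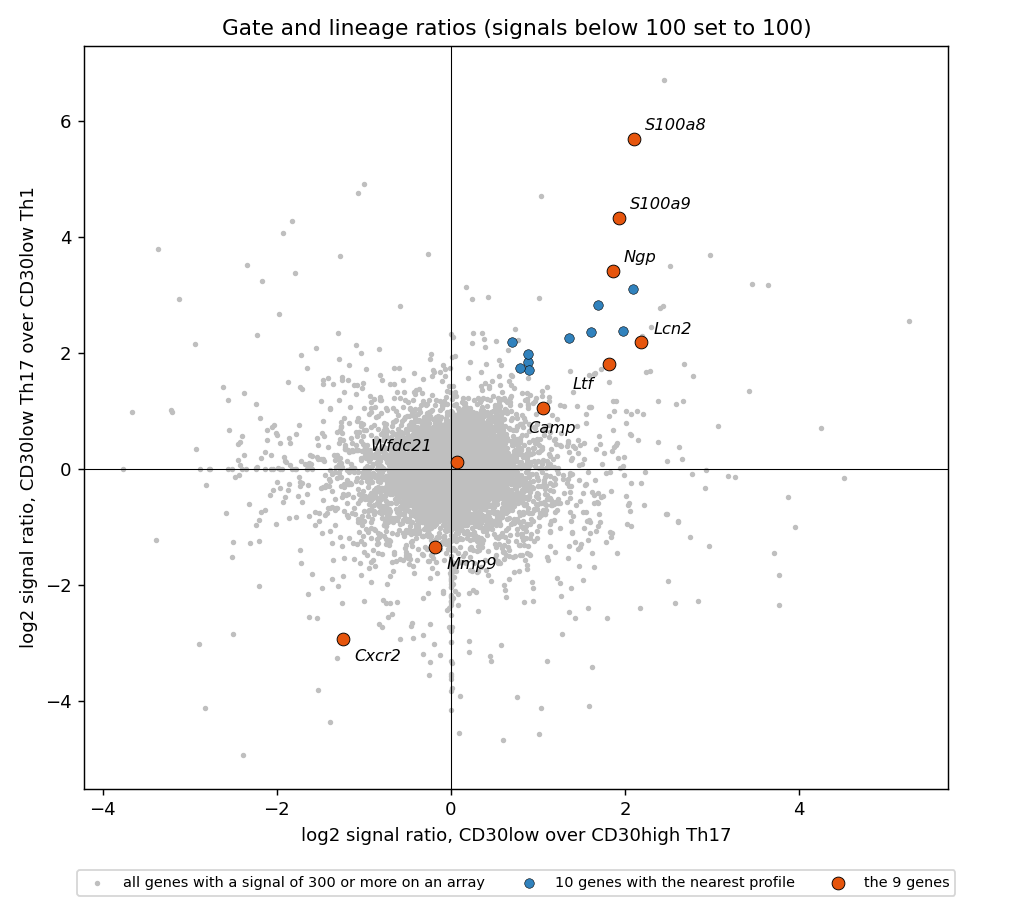
Log2 ratio of CD30low over CD30high Th17 cells (x axis) against the log2 ratio of CD30low Th17 over CD30low Th1 cells (y axis), with signals below 100 set to 100; grey points are all genes reaching 300 on an array, orange points the 9 genes and blue points the 10 genes of nearest profile. Both axes share the CD30low Th17 array; S100a8 lies at 2.10 and 5.70, and Cxcr2 at -1.23 and -2.93.

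To see how far other neutrophil genes went with these, 57 further genes in 4 lists were examined, of which 46 were named in the annotation used here. Primary granule genes were dim throughout. All 5 named genes of that list, among them Mpo (myeloperoxidase, 36.3 to 60.1) and Elane (neutrophil elastase, 15.9 to 94.1), were below 100 on every array. Csf3r, the receptor of the growth factor of neutrophils, was also below 100 on every array (18.5 to 91.3). Il1b, an inflammatory cytokine gene of activated neutrophils, had 121 in CD30low Th1 cells and was below 100 on the other arrays. Ly6g, Fpr1, Retnlg and the granulopoietic factor gene Cebpe had no named probe set here.

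Of 13 further secondary and tertiary granule genes, 5 reached 100 in a Th17 array and 2 passed as higher in CD30low Th17 cells. Chil3, a chitinase-like protein of mouse myeloid cells, had 2.75 and 2.67 in the Th1 cells and 312 and 86.3 in the Th17 cells (at least 3.12-fold). Slpi, a secreted inhibitor of neutrophil elastase, had 143 and 67.2 in the Th1 cells and 301 and 47.4 in the Th17 cells (at least 3.01-fold). Adam8, a membrane protease of leukocytes, passed as higher in CD30high Th17 cells, with 383 and 783, and was also higher in CD30high Th1 cells (700 and 1499). Olfm4 had 77.7 and 17.5, Mmp8 75.5 and 53.3 and Cd177 24.7 and 27.4 in the Th17 cells, all in the dim range. Cyba, a subunit of the NADPH oxidase that T cells also express, was between 8325 and 11357 on all arrays.

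Of 13 named cytosolic neutrophil genes, 4 reached 300 in a Th17 array. Of these, 2 passed the rule as higher in CD30low Th17 cells and 0 as lower. Stfa2l1, of the stefin family of cysteine protease inhibitors, had 7.53 and 19.6 in the Th1 cells and 313 and 64.8 in the Th17 cells. Its relative Stfa3 had 5.73 and 31.1 in the Th1 cells and 254 and 59.6 in the Th17 cells, without an array at 300. The order of the 4 populations was the same as for Camp and Ltf; the stefin genes of the mouse are close copies, so which of them was measured is uncertain. Anxa1, an annexin that T cells also express, had 2221 and 747 in the Th17 cells but 11641 and 11108 in the Th1 cells. Ncf1 (1049 and 1242), Ncf4 (2949 and 3113), Ifitm6 (150 and 209) and Hdc (49.1 and 176) had their lower Th17 signal in CD30low cells. The median log2 ratio of CD30low over CD30high Th17 cells was -0.08 for the 7 genes of this list that reached 100.

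Of 15 named surface genes, 4 reached 100 in a Th17 array, 0 passed as higher in CD30low Th17 cells and 2 passed as lower. These were Il1r2 and Ltb4r1. Il1r2, the decoy receptor of IL-1, had 429 and 1059.8 in the Th1 cells and 2134 and 9955 in the Th17 cells, higher in the CD30high population of both lineages. Ltb4r1, a leukotriene receptor, had 1907 and 4309.7 in the Th17 cells. Fpr2, a formyl peptide receptor, did not pass, with 6.67 and 7.16 in the Th1 cells and 147 and 63 in the Th17 cells, its highest value being in CD30low Th17 cells as for the granule genes. Over the 4 lists together, 10 of the 46 named genes reached 300 in a Th17 array. Of these, 4 passed as higher and 3 as lower in CD30low Th17 cells, against 3.66% and 3.94% of all genes tested. The lists were chosen with earlier results of these data known, so nothing is read from the difference. The median log2 ratio of the 16 genes that reached 100 was 0.06, against -0.02 for all 9862 genes measured this way.

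Genes of other cell types the cultures could hold were read in the same way. In the monocyte and macrophage list, Lyz1, a lysozyme gene, passed as higher in CD30low Th17 cells, with 27.3 and 20.4 in the Th1 cells and 464 and 92.5 in the Th17 cells. Another Lyz1 probe set had 129 and 33.3 in the Th17 cells and a further one 18.3 and 27.3. Lyz2, the lysozyme of neutrophils and macrophages, had 231 and 88.5 in the Th17 cells and 62.7 and 76.4 in the Th1 cells; the lysozyme genes are close copies, and their signals may be shared. The macrophage genes Csf1r (30.3 and 130), Adgre1 (64.8 and 158) and Cd14 (26.9 and 104) had their lower Th17 signal in CD30low cells, but another Csf1r probe set had 55.5 and 20.1. Ctss (5110 and 4219) and Cd68 (69 and 61.4) had their higher Th17 signal in CD30low cells. Over the whole list, 1 of 18 named genes passed as higher in CD30low Th17 cells and 1 as lower, Ccr2.

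The summed signal of the 18 named monocyte and macrophage genes was 8566 in CD30low and 9946 in CD30high Th17 cells, and 14440 and 14013 in the Th1 cells; in each, most came from Ctss and Ccr2, the latter a chemokine receptor that T cells also express. C1qa, C1qc, Mpeg1 and Apoe were below 100 on every array. The summed signal of the 46 other neutrophil genes was 23941 in CD30low and 31785 in CD30high Th17 cells, and 32551 and 30303 in the Th1 cells. Without Il1r2 the sums were 21807 and 21831 in the Th17 cells. Most of each came from Cyba (10424 and 9764), Ncf4 (2949 and 3113), Ltb4r1 (1907 and 4309.7), Anxa1 (2221 and 747) and Ncf1 (1049 and 1242). These genes were above 300 on every array, so the sums say little about the dimmer genes of the lists. Dendritic cell genes were below 100 on every array (7 of 7 named). Of 7 named B cell genes, 0 passed between the Th17 gates. Cd79a and Pax5, which define B cells, were below 100 on every array, Cd79b (74.2 and 139), Cd22 (46.1 and 134) and Blnk (59 and 239.9) had their lower Th17 signal in CD30low cells, and Ighm, the immunoglobulin mu chain gene, had 5154 and 2444 in the Th1 cells and 4842 and 3224 in the Th17 cells. The part of other cell types in the granule gene signals was not tested.

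**Figure D3:**
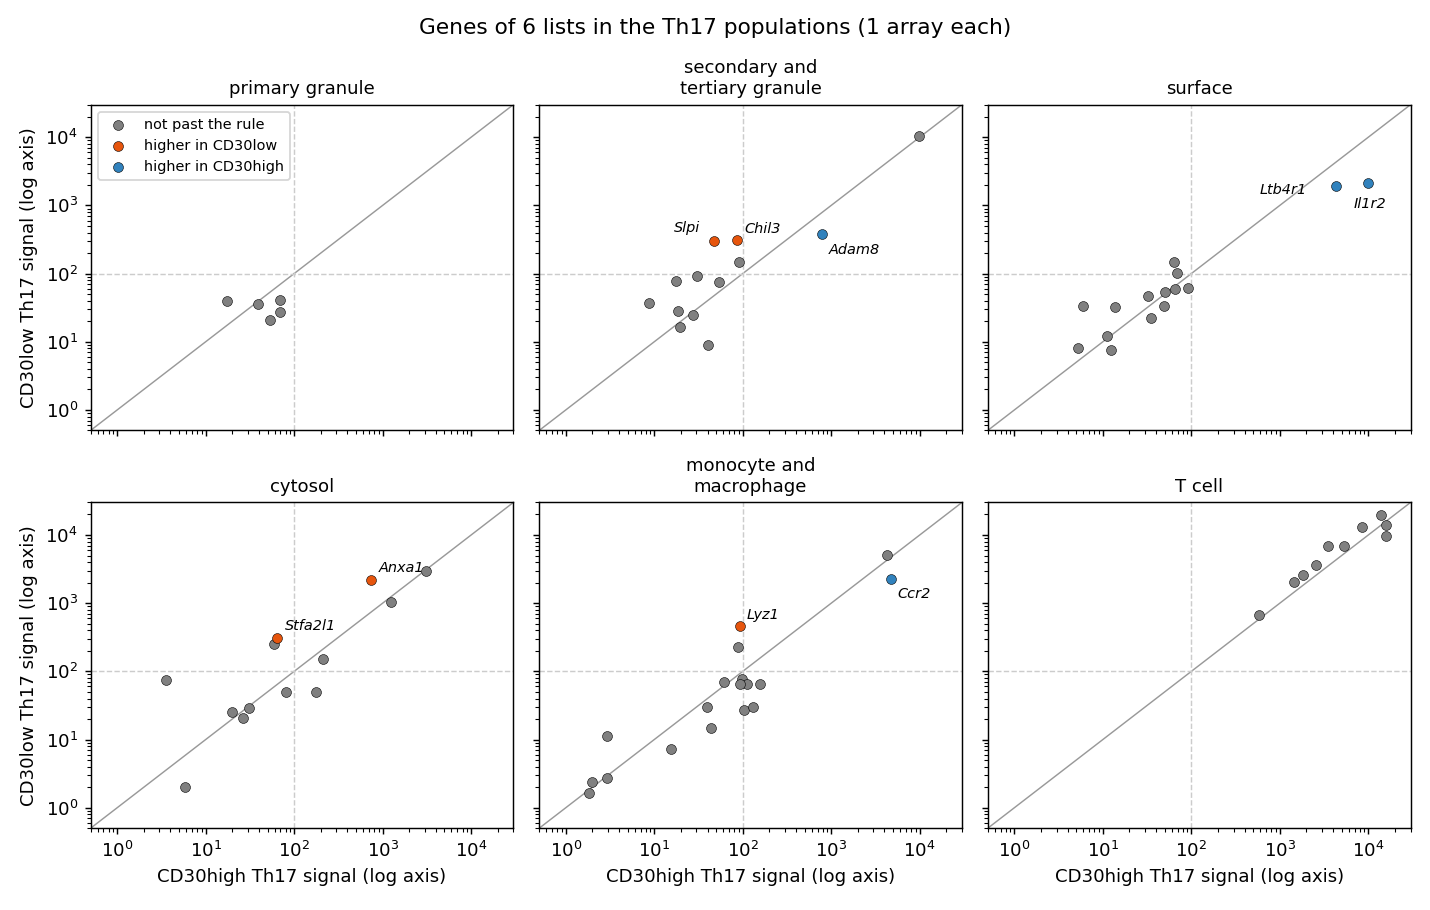
Signals in CD30low Th17 (y axis) against CD30high Th17 cells (x axis), both on log axes, for the named genes of 6 lists, 1 array each; the diagonal marks equal signals and dashed lines mark 100. Orange genes passed the fold rule as higher in CD30low cells (Slpi, Chil3, Stfa2l1, Anxa1 and Lyz1) and blue genes as higher in CD30high cells; all primary granule genes lie below 100.

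Of 7 named transcription factors of the granulocyte lineage, 4 reached 300 in a Th17 array, and none passed the fold rule between the Th17 gates. In Th17 cells Cebpb had 1806 and 2416, Cebpd 436 and 453, and Gfi1, which T cells also use, 1069.9 and 1559. Irf8 (472 and 399) and Klf4 (177 and 96.7) had their higher Th17 signal in CD30low cells. The other Klf4 probe set had 83.5 and 34.6. Cebpa was between 6.92 and 26 on all arrays, and Spi1, which encodes PU.1, between 48.1 and 105.

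Of 15 receptors, ligands and other partners of the encoded proteins, 5 reached 300 in a Th17 array. Of these, 1 passed as lower in CD30low cells, against 3.94% of all genes tested, and 0 as higher. It was Timp1, the inhibitor of gelatinase B, with 202 in CD30low and 1868 in CD30high cells (9.27-fold higher in CD30high cells). Emb, whose protein embigin binds S100A9, had 13352 and 19669.9, and Bsg, its relative, 3883 and 4885. Tlr4 was below 100 on every array. P2rx7, which cathelicidin can engage, had 411 and 232, and Ager, a calprotectin receptor, had 152 and 45.7. The CXCR2 ligands Cxcl2, Cxcl3, Cxcl5 and Ppbp were below 100 on every array. Cxcl1 was between 105 and 168 by its brightest probe set, and its other probe sets were below 100 on every array. The median log2 ratio of the 7 genes that reached 100 was -0.35.

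The chromosomal neighbours of the genes were read to see whether whole stretches shared the pattern. S100a8 and S100a9 lie next to each other within the S100 gene cluster. Their nearest bright neighbours had much smaller gate differences, with 2067 and 1504 for S100a4 and 6235 and 4379 for S100a6 in Th17 cells. Both neighbours were far brighter in Th1 cells, S100a4 with 20479 and 19441 and S100a6 with 18018 and 14820, the reverse of calprotectin. Camp, Ngp and Ltf lie on 1 chromosome with 29 protein-coding genes between Camp and Ltf, Ngp included. Of the 26 other named genes there, 10 reached 300 in Th17 cells and 1, Als2cl, passed as higher in CD30low cells (424 and 134). The log2 ratios of these 10 ran from -0.22 to 1.66. Setd2, a histone methyltransferase gene placed between Ngp and Ltf, had 878 and 811.

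**Figure D4:**
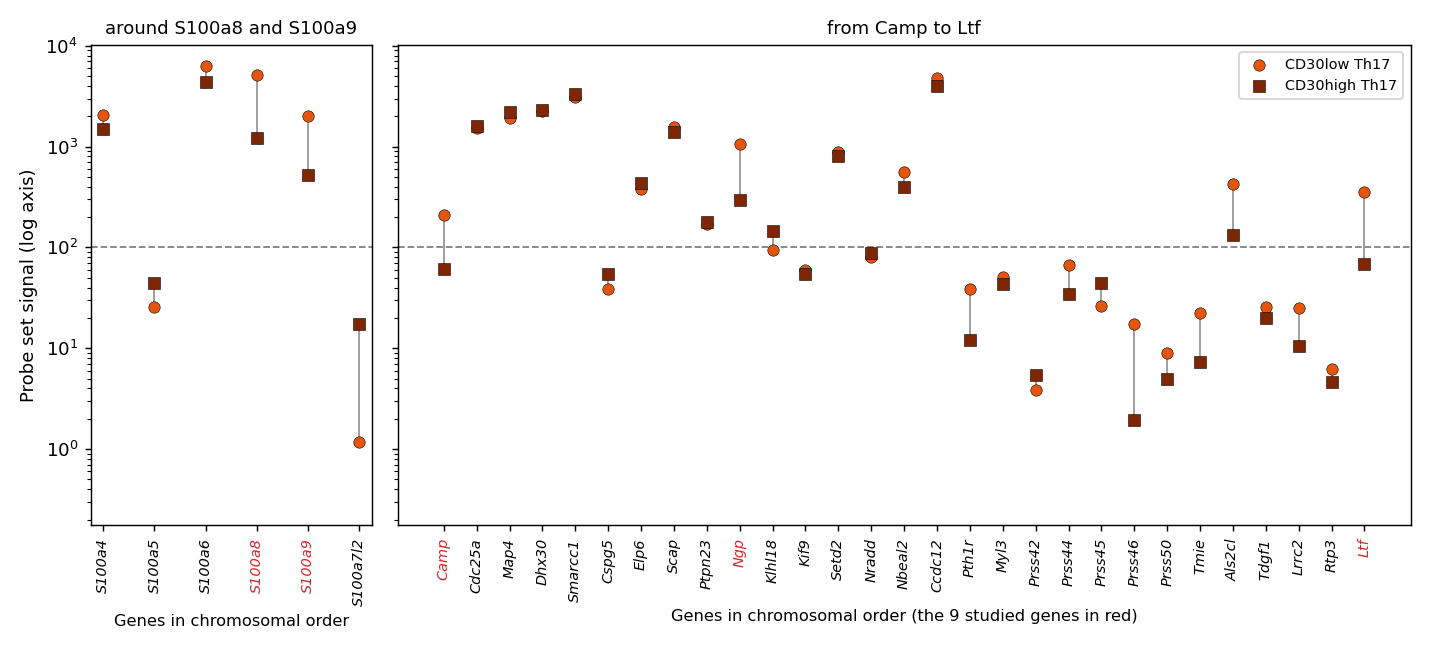
Probe set signals (y axis, log axis) of CD30low (circles) and CD30high (squares) Th17 cells for named genes in chromosomal order around S100a8 and S100a9 and from Camp to Ltf, 1 array each; names in red are among the 9 genes and the dashed line marks 100. Camp, Ngp and Ltf stand apart from their immediate neighbours, while Als2cl has a similar difference (424 and 134).

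The genes whose profile over the 4 arrays was most like that of the group were found by the root mean square distance between centred log2 signals, taken to the mean profile of the 6 genes that reached 300, Cxcr2 included, among 8221 other genes. Penk, the gene of proenkephalin, was nearest (distance 0.18), with 17.5 and 63.7 in the Th1 cells and 715 and 222 in the Th17 cells. Pdzk1ip1 (0.22) followed with 11.2, 134, 516 and 169, and Nfkbiz (0.23), which encodes an atypical inhibitor protein of NF-κB, with 896, 607, 4275 and 1669.8. The others were Nab2, Egr2, Myh10, Zfp946, Ptpn9, Cyp11a1 and Il6ra, with distances of 0.24 to 0.30. None of the 10 is a granule gene. The mean mixes Cxcr2 with genes that ran the other way between the Th17 gates. Each of the 6 lay farther from it than the 10 did, from 0.39 (Lcn2) to 2.27 (Cxcr2). Distances of the 10 to single genes of the group were not taken. Within the group, Ltf and Lcn2 had the closest profiles (0.16) and S100a8 and Cxcr2 the most distant (3.74), a distance that also reflects how far each gene lay above the floor of 100.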

How the data were processed

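Biotin-labelled RNA of each population was hybridized to an Affymetrix mouse expression array. What the authors deposited was 1 linear intensity per probe set and array, credited to the GeneChip Operating Software in the methods and to Affymetrix Expression Console in the submitters' processing notes. The trimmed mean was between 496.5 and 496.8 on every array, as after scaling to a common target, which takes the overall RNA level of the populations as equal. Detection calls and the scaling target were not given in the sources used here.

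Probe sets were named from the platform annotation, updated through gene identifiers (34741 of 34945 with 1 symbol; 932 had several and 9160 were unnamed here). Each gene was represented by its probe set of highest mean signal. No test was run, since each group had 1 array; an additive fit of lineage and gate was not used, because it counts the difference the genes were chosen for as error. The fold rule was tested on simulated data. The named genes were the 9 genes, list genes past the rule beside the brightest and defining markers, and the 10 nearest profiles. The genes and lists were chosen with earlier results of these data known. A few further genes (Olfm4, Mmp8, Cd177, Setd2 and other dim or neighbouring genes) were named after their values were seen. Alternatives covered scaling, floor, fold and signal limits, probe set choice and naming. Python 3.11.15, numpy 2.4.6, pandas 2.3.3 and matplotlib 3.10.9 were used. With 1 array per population, the array number sets the precision.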

Additional observations from a re-analysis of the deposited data

How the results depend on the processing

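The counts of genes past the fold rule were recomputed under 11 alternatives in each direction of the 4 comparisons, and 83 of 88 stayed within 1.5 times of the reported count. Between the Th1 gates 7 of the 9 genes were below 100 on both arrays, so the counts of 0 there could hardly change. With a signal limit of 500, Ltf and Lcn2 no longer counted, which left 3 genes (S100a8, S100a9 and Ngp) higher in CD30low Th17 cells, both against CD30high Th17 and against CD30low Th1 cells. With a signal limit of 200, Cxcr2 counted as lower in CD30low than in CD30high Th17 cells (1 gene against 0), and Mmp9 joined Cxcr2 as lower in Th17 than in Th1 cells, giving 2 genes in either gate. These shifts follow from the limits themselves. The log2 ratios of CD30low over CD30high Th17 cells reversed for 0 of 9 genes under the 7 alternatives that apply to them. The ratio became 0 for Wfdc21 with a floor of 200. For Mmp9 it became 0 with that floor, with the mean of its probe sets and with its dimmer probe set. Apart from Mmp9 each gene had 1 probe set, so the choice of probe set could not move the ratios of the other genes. With such fixed values counted, 56 of 63 ratios moved by less than the spread between probe sets. The others came from the floor: with a floor of 50 the log2 ratio was 1.77 for Camp, 2.35 for Ltf and -0.60 for Mmp9, and with a floor of 200 it was 0.06 for Camp, 0.82 for Ltf, 1.20 for Lcn2 and -0.23 for Cxcr2. Ltf is under 2-fold at that floor. Median centring and quantile normalization moved none of the 9 by more than that spread. Over all genes, the counts higher and lower in CD30low Th17 against CD30high Th17 cells were 710 and 741 with a 1.5-fold limit and 131 and 124 with a 3-fold limit, and these limits moved the other comparisons by more than 1.5 times too: 279 and 316, then 6 and 10 between the Th1 gates; 921 and 1043, then 102 and 182 for Th17 over Th1 among CD30low cells; and 1084 and 1185, then 154 and 261 among CD30high cells. The probe set with the lowest mean gave 177 and 171 between the Th17 gates, 23 and 44 between the Th1 gates, and 221 and 361 for Th17 over Th1 among CD30high cells, since genes with a dim probe set were no longer tested. A signal limit of 200 gave 57 and 114 between the Th1 gates, and with the limit of 500 these were 29 and 42. No paired analysis was possible because each group had 1 array and no label pairs the samples.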

Other observations

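Of 11 further named S100 genes, 5 reached 100 in a Th17 array and 0 passed the fold rule between the Th17 gates; the median log2 ratio of CD30low over CD30high cells was 0.11. S100a10, which binds annexin A2, had 20997 and 27232 in CD30low and CD30high Th17 cells, and S100a13 had 5103 and 4723. Among matrix metalloproteinases and their inhibitors, no protease reached 300 in Th17 cells, whereas the inhibitors split. Timp1 was higher in CD30high cells (202 and 1868), and Timp2 was higher in CD30low cells (754 and 123). Timp2 was also higher in CD30low than in CD30high Th1 cells, with 1407 and 678. Mmp13, a collagenase, had 368 and 329 in the Th1 cells and 12.8 and 0.753 in the Th17 cells.

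Of 14 genes known to be induced by IL-17 in tissue cells, 2 reached 300 in a Th17 array. Of these, 1 passed as higher in CD30low cells, against 3.66% of all genes tested. It was Nfkbiz, with 4275 in CD30low and 1669.8 in CD30high cells. Its other probe sets had 440 and 262, and 1330 and 273, the same direction. Il17a itself ran the other way, with 1398 and 14443. Csf3, Cxcl5, Ccl20, Ccl2 and Saa3 were below 100 on every array. Mcpt8, a protease of basophils, had 85.7 and 470.2 in CD30low and CD30high Th17 cells and was below 10 on both Th1 arrays. Of 11 named genes of eosinophils, basophils and mast cells, 2 reached 300 in a Th17 array. Mcpt8 alone passed the fold rule between the Th17 gates, as lower in CD30low cells, as did 3.94% of all genes tested. The rest of that list was mixed in direction. Fcer1a, a chain of the IgE receptor, had its higher Th17 signal in CD30low cells (151 and 29.4). So did Cpa3, a mast cell protease, with 301 and 227, beside 238 and 244 in the Th1 cells. Gata2 had 121 and 183 in the Th17 cells, the direction of Mcpt8.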
